A study of Bos taurus
Mus musculus and Bos taurus and Mus musculus with 5 samples.

Results

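The mouse transcripts of heterokaryons at 72 h were compared with those at 48 h after fusion. A heterokaryon is a fused cell that keeps the nuclei of its parents apart, here a C57BL mouse embryonic stem cell and a bovine fetal fibroblast from 1 fetus. Genes were included when they reached 10 RPM (reads scaled to the total of mouse reads in the library) in 1 or both of the 2 libraries, which left 8192 of the 24543 mouse genes listed. Each time point is 1 library of 200 sorted cells, so no replicate error exists, no test was possible, and every interval below is a 95% interval for counting error alone.

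By the protocols, both groups had the same history. The stem cells were grown on irradiated mouse feeder cells with 1 µM PD0325901, which blocks the kinase MEK, and 3 µM CHIR99021, which blocks the kinase GSK3. They were then co-cultured with fibroblasts for 4 h, fused for 2 min with polyethylene glycol, and kept at 37 °C in medium with the cytokine LIF but without both inhibitors. The 48 and 72 h groups therefore differ by 1 day in that medium. The labels do not say whether they came from the same fusion or were made into libraries together. Time thus cannot be told apart from fusion, sort or library. The unfused stem cells (mESC) that give the reference level were still grown with both inhibitors, so a distance from that level cannot be assigned to fusion rather than to the loss of the inhibitors.

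Mouse embryonic stem cells hold their state through a network of transcription factors around Oct4, Sox2 and Nanog. LIF, acting through Stat3, and WNT signalling feed a set of naive factors such as Klf4, Esrrb and Tbx3. FGF signals, carried by ERK, and Nodal signals, restrained by the Lefty proteins, move cells out of that state. Immediate-early genes such as Fos and Egr1 are switched on within minutes by stress or serum, and p53 switches on genes after DNA damage.

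The 48 h library held 1731084 mouse reads and the 72 h library 1836299, which were 56.5% and 54.4% of all their assigned reads. Reads were found for 13242 and 13342 mouse genes, and 3 reads correspond to 1.73 and 1.63 RPM. Bovine reads listed as mouse by error would make up an estimated 1.42% and 1.55% of these totals. The stem cell label held in that all 8 stem cell markers had reads in both libraries, at a summed 15631 and 15967 RPM, against 18444 in mESC. Most of the sum in both heterokaryon libraries came from the single gene Dppa5a, so it says little about the other markers. Nanog was below its mESC level in both. Feeder fibroblast markers summed to 44.5 and 43.6 RPM with 5 of 10 detected, and wrongly assigned bovine reads alone would give an estimated 49.4 and 53.9 RPM. In bulk libraries such as these, fewer cells of a type and less RNA per cell cannot be told apart.

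Few mouse genes differed by much between 48 and 72 h. At least 2-fold on the scale of log2(RPM + 1), 181 genes were higher (2.21% of members) and 204 were lower (2.49%). With a pseudocount of 5 in place of 1 they were 63 and 69. At 4-fold the counts were 10 (0.122%) and 18 (0.22%). Most of these genes were weakly covered. Between 10 and 20 RPM 12.5% of genes passed 2-fold, between 20 and 50 RPM 4.74%, and between 50 and 200 RPM 0.539%, while 0 of 1032 genes above 200 RPM did. A gene near 10 RPM enters through the library in which it is high, so part of the differences among weak genes follows from the choice of genes.

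Among the 3629 genes at 50 RPM or more, 7 were at least 2-fold higher and 7 at least 2-fold lower, each 0.193%. The step from 24 to 48 h, over its own 3678 genes at this level, had 20 higher (0.544%) and 98 lower (2.66%). Both steps use the 48 h library, and the difference between them has no replicate to be tested against. Over all members the median difference from 48 to 72 h was 0.02 on the log2 scale, with 25th and 75th percentiles of -0.25 and 0.29.

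**Figure D1:**
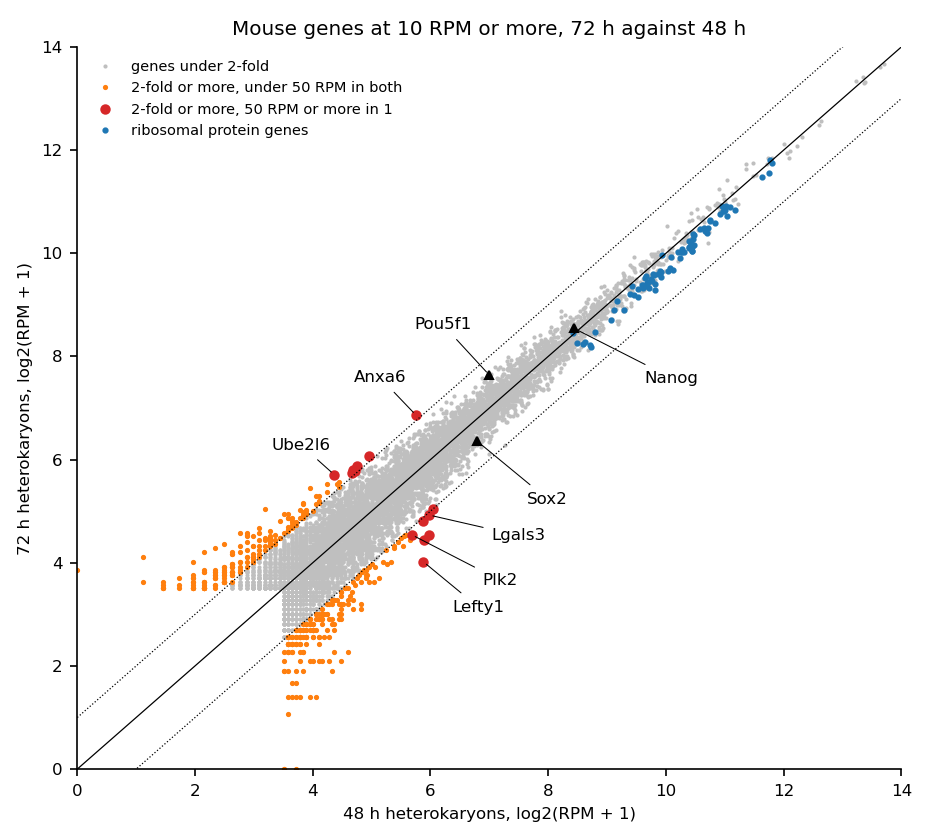
Level of each of 8192 mouse genes at 48 h (x axis) and 72 h (y axis), both as log2(RPM + 1); the solid line marks equal levels and the dotted lines 2-fold. Red points are the 14 genes at 50 RPM or more that pass 2-fold, orange points are weaker genes that do, and the blue ribosomal protein genes lie mostly below the line of equal levels.

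The core pluripotency factors showed no common direction. Of 17 members 1 was at least 1.5-fold higher and 0 lower, where 9.08% and 9.13% of all members were, and the list median was -0.02. These shares are the background for every list count at 1.5-fold below. They were not matched to the level of a list, and large differences were rarer among well covered genes. Pou5f1, which encodes Oct4 (chromosome 17, start 35506032 in mm10, plus strand), stood at 221 RPM in mESC, 166 at 24 h, 127 at 48 h and 198 at 72 h. Its 72 h level was 1.56-fold that of 48 h (1.32 to 1.85), and the 48 h value was the lowest of the 4 libraries. Both Pou5f1 transcripts listed were higher, with 155 and 254 reads for one and 65 and 110 for the other.

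Sox2, the DNA-binding partner of Oct4, went the other way. It had 77.2 RPM in mESC, 74.6 at 24 h, 110 at 48 h and 81.1 at 72 h, so that 48 h was 1.35-fold above 72 h (1.09 to 1.69). Nanog, which stabilises self-renewal, had 752 RPM in mESC and 253, 346 and 372 RPM at 24, 48 and 72 h. Its ratio of 72 to 48 h was 1.08 (0.963 to 1.20), an interval that holds 1, and its level at 72 h remained below that of mESC. The Nodal co-receptor gene Tdgf1 was 1.28-fold higher (1.23 to 1.34) and the TGF-beta family ligand gene Gdf3 1.26-fold higher (1.10 to 1.45). Dppa5a, an RNA-binding protein gene of pluripotent cells, had 22062 reads at 48 h and 23059 at 72 h, a 48 to 72 h ratio of 1.01 (0.996 to 1.03).

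Naive factors were more often above than below their 48 h level. Of 18 members 14 were higher by any amount, against 52.0% of all members, and 3 passed 1.5-fold upward and 2 downward (1 and 1 with a pseudocount of 5), with a median of 0.18. Their median distance to mESC was -0.63 at 48 h and -0.35 at 72 h. Nr0b1, a nuclear receptor gene of naive cells, had 216 RPM in mESC, 33.8 at 24 h, 67.0 at 48 h and 105 at 72 h. It was thus higher at each later time, by 1.56-fold in this step (1.23 to 1.98). Tbx3, a T-box factor gene that acts downstream of LIF, had 58.0, 38.7, 24.8 and 39.2 RPM in the same order of libraries, a 72 to 48 h ratio of 1.58 (1.07 to 2.36).

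Of the other naive genes, some stayed close to their 48 h level, some were lower, and Lifr was higher but weakly covered. Klf2 was at 140 and 145 RPM and Tfcp2l1 at 168 and 176 RPM. The LIF receptor gene Lifr had 20 and 36 reads. Its difference of 0.71 was the highest of the list and passed 1.5-fold, but the interval of its ratio (0.956 to 3.09) holds 1. The LIF co-receptor gene Il6st went the other way, with a difference of -0.76, which passed 1.5-fold downward. Esrrb, an orphan nuclear receptor that sustains self-renewal, had 54.8 RPM in mESC, 88.2 at 24 h, 91.3 at 48 h and 51.7 at 72 h. It was 1.76-fold lower at 72 h (1.36 to 2.30) and back near the mESC value, which lies inside its 72 h interval of 41.9 to 63.2 RPM. Klf4 was 1.31-fold lower (1.08 to 1.60).

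Nodal antagonists were lower at 72 h. Lefty1 (chromosome 1, start 180935022 in mm10, plus strand) encodes a secreted inhibitor of Nodal. Its level was 41.8 RPM in mESC, and it went from 63.9 RPM at 24 h to 57.8 at 48 h and 15.2 in the 72 h library. That was the largest difference among genes at 50 RPM or more, 3.79-fold lower (2.47 to 5.99), and took Lefty1 below every other library. Its neighbour and close relative Lefty2 (start 180893108) had 187 RPM in mESC and 340, 116 and 74.6 RPM at 24, 48 and 72 h, 1.55-fold lower in this step (1.24 to 1.94). Nodal itself had 58.9 and 52.3 RPM, with a 48 to 72 h ratio of 1.13 (0.845 to 1.51). The files do not say how reads shared by both Lefty genes were placed, so the split between them is uncertain. In the wider list of BMP and TGF-beta genes 2 of 12 members, the Lefty genes, were 1.5-fold lower and 0 higher, with a median of 0.01.

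**Figure D2:**
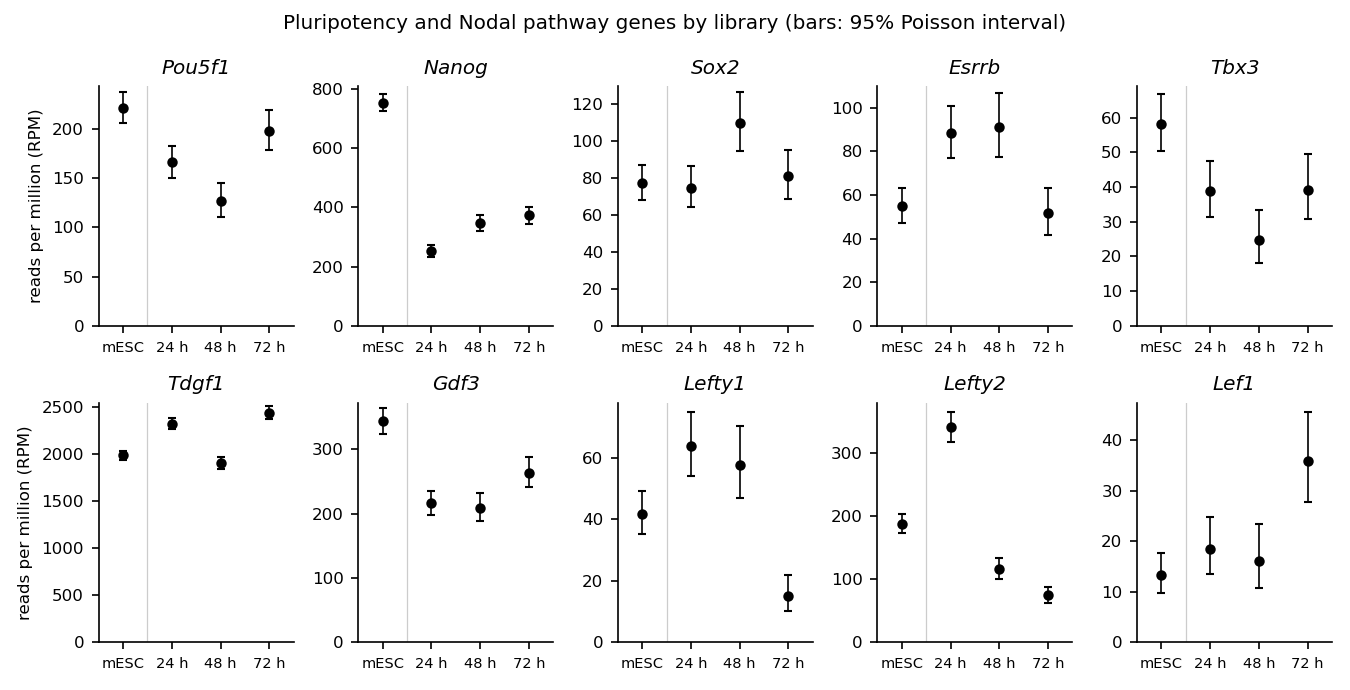
Level in RPM (y axis) of 10 pluripotency and signalling genes in unfused stem cells (mESC) and in heterokaryons at 24, 48 and 72 h (x axis), 1 library each, with 95% Poisson intervals. Pou5f1 and Tbx3 are lowest at 48 h, Sox2 is highest there, Esrrb returns to about its mESC level at 72 h, and Lefty1 is lowest at 72 h with 15.2 RPM.

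Signalling targets gave single-gene differences in both directions. Of 6 WNT target members 2 were 1.5-fold higher and 1 lower, against 9.08% and 9.13% of all members. Lef1, a transcription factor gene that is both effector and target of WNT, had 13.3 RPM in mESC, 18.5 at 24 h, 16.2 at 48 h and 35.9 at 72 h. It was 2.22-fold higher (1.41 to 3.59) and above each of the other libraries, while Tcf7, of the same factor family, did not pass 1.5-fold and had 55 and 39 reads. The member 1.5-fold lower was Znrf3, which encodes a ligase that removes WNT receptors, with 18 reads at 48 h and 9 at 72 h (2.12-fold, 0.905 to 5.36). The intestinal homeobox gene Cdx1 had 25.1, 42.7 and 74.1 RPM at 24, 48 and 72 h and 85.9 in mESC.

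ERK feedback genes split as well, with 1 of 8 members 1.5-fold higher and 1 lower, against 9.08% and 9.13% of all members. The phosphatase gene Dusp6, which switches ERK off, had 5 reads at 48 h and 19 at 72 h, a ratio of 3.58 (1.29 to 12.3). The feedback inhibitor gene Spry1 had 25 and 11 reads and was 2.41-fold lower (1.14 to 5.43). Spry2 and Etv5 were within 1.19-fold and 1.11-fold of their 48 h levels. Cyclin D2 (Ccnd2), which starts the cell cycle with the kinases Cdk4 and Cdk6, had 0 reads in mESC, 47 at 24 h, 5 at 48 h and 21 at 72 h, 3.96-fold above 48 h (1.45 to 13.4). The better covered cyclin D3 (Ccnd3) had 215 and 330 RPM and was 1.53-fold higher (1.34 to 1.75), with 368 RPM in mESC.

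Several genes that were high at 24 h were lower again at 72 h. Lgals3, which encodes the sugar-binding protein galectin-3, had 8.12 RPM in mESC, 278 at 24 h, 61.8 at 48 h and 29.4 at 72 h, 2.10-fold lower in the last step (1.5 to 2.97). The calcium-binding protein gene S100a6 had 3.77 RPM in mESC and then 308, 60.1 and 31.0 RPM, 1.94-fold lower (1.39 to 2.72). The kinase gene Plk2, a p53 target, had 27.3 RPM in mESC and 151, 50.3 and 22.3 RPM in heterokaryons, 2.25-fold lower (1.54 to 3.35). Plk2 was at its mESC level by 72 h, where its interval reached from 16 to 30.3 RPM, and the other genes were still above it.

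Most immediate-early factors differed little between 48 and 72 h. Of 14 members 1 was 1.5-fold higher and 1 lower at 72 h, with a median of -0.06 against -1.13 for the step from 24 to 48 h. Over all members 9.08% were 1.5-fold higher and 9.13% lower. Klf6 was 1.59-fold lower (1.15 to 2.21). Fos, a subunit of the AP-1 factor, had 591 and 511 RPM against 124 in mESC, and Egr1 had 86.1 and 87.1 RPM against 27.0, so both remained above the stem cell level. Epithelial genes, a list that also holds Lgals3, had 2 of 17 members 1.5-fold higher and 3 lower, with a median of -0.01. The keratin gene Krt8 was 1.53-fold lower (1.16 to 2.02), and its filament partner Krt18 had 61.8 and 57.2 RPM. The tight junction gene Cldn6 was 1.69-fold higher (1.26 to 2.26) and the keratin gene Krt7 1.63-fold higher (1.09 to 2.46), while Krt19 had 99.4 and 103 RPM. The p53 response list had 3 of 20 members 1.5-fold lower and 2 higher, with a median of -0.14. Of these, the nuclease gene Aen was 1.66-fold higher (1.23 to 2.25), and the receptor gene Eda2r had 20 reads at 48 h and 3 at 72 h.

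**Figure D3:**
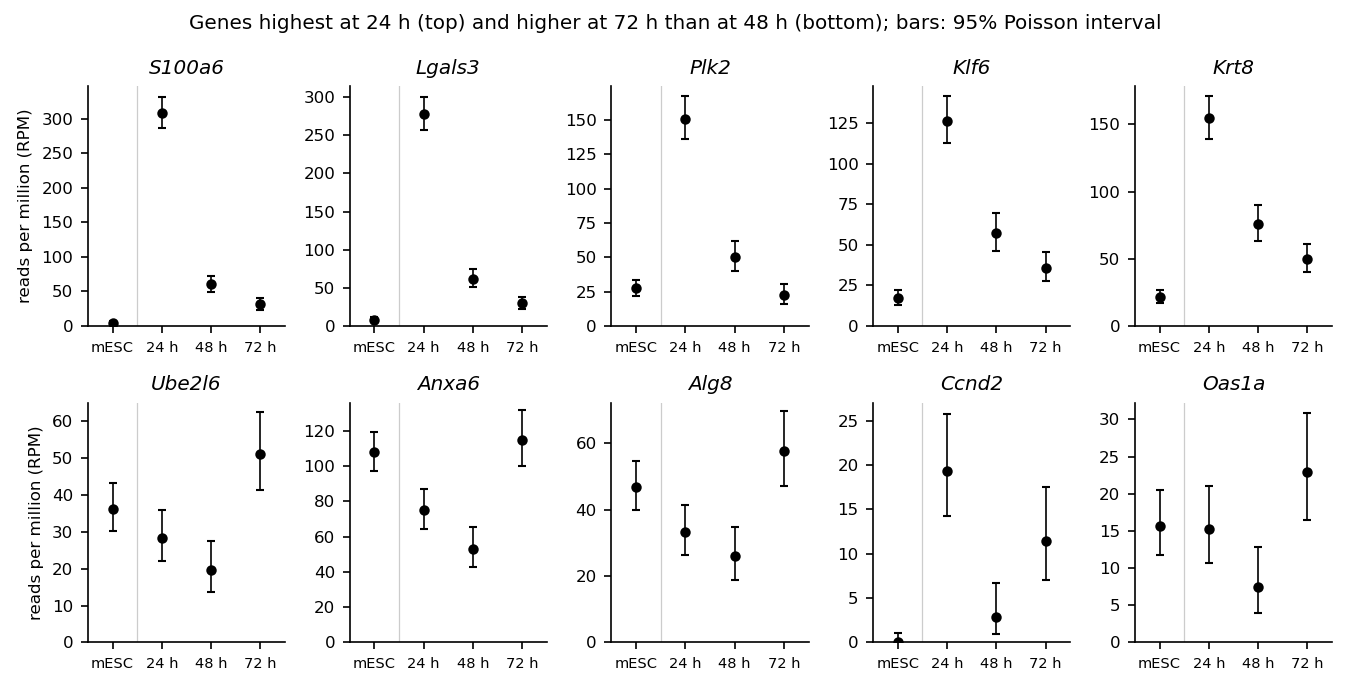
Level in RPM (y axis) by library (x axis; mESC, then heterokaryons at 24, 48 and 72 h) for 5 genes that peak at 24 h (top) and 5 genes higher at 72 h than at 48 h (bottom), with 95% Poisson intervals. The upper genes are lower at each later time, and the lower ones have their lowest heterokaryon value at 48 h.

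Among genes at 50 RPM or more 7 were 2-fold higher. Ube2l6, which encodes the enzyme that hands the ubiquitin-like protein ISG15 to its targets, had 36.3 RPM in mESC, 28.4 at 24 h, 19.6 at 48 h and 51.2 at 72 h. Its ratio of 2.61 (1.74 to 3.98) was the largest of these. The membrane-binding annexin gene Anxa6 had 108, 75, 53.1 and 115 RPM in the same order of libraries, a ratio of 2.16 (1.68 to 2.79). The glycosylation enzyme gene Alg8 had 47.0, 33.4, 26.0 and 57.7 RPM (ratio 2.22, 1.55 to 3.22). Tmem128, Ankrd46, the dynein subunit gene Wdr34 and the RNA helicase gene Ddx54 had ratios from 2.12 to 2.21. In all 7 the 48 h library was the lowest of the 4, a pattern that choosing genes by their excess over 48 h favours.

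Apart from Lefty1, Plk2 and Lgals3, the 2-fold lower genes at this level were Selenot, Pum2, Bnip2 and Wasf2. Selenot, a selenoprotein gene of the endoplasmic reticulum, had 24.1 RPM in mESC, 68.4 at 24 h, 58.3 at 48 h and 20.7 at 72 h, 2.82-fold lower (1.92 to 4.21). Pum2, which encodes a protein that represses mRNAs, had 23.8, 60.2, 61.8 and 22.3 RPM in this order, 2.77-fold lower (1.91 to 4.07). Both were thus above mESC in the 24 and 48 h libraries and near the mESC level at 72 h. Wasf2, a regulator of actin assembly, had 16.5, 41.2, 65.3 and 32.1 RPM. Bnip2 had 63.5, 72.1, 57.8 and 27.2 RPM and so ended below mESC. The neuropeptide precursor gene Trh, just under the limit, was 1.97-fold lower (1.60 to 2.44), at 192 RPM in mESC and 77.3 at 72 h.

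Interferon and antiviral genes had 3 of 12 members 1.5-fold higher and 1 lower, with a median of -0.01. Over all members 9.08% were 1.5-fold higher and 9.13% lower. The antiviral enzyme gene Oas1a had 13 reads at 48 h and 42 at 72 h, a ratio of 3.05 (1.60 to 6.18). Irf9, a subunit of the factor that interferon activates, had 12 and 27 reads (2.12, 1.04 to 4.6), and the RNA sensor gene Ddx58 had 21 and 38 (1.71, 0.976 to 3.06). The histocompatibility gene H2-D1 was 1.56-fold lower (1.14 to 2.16). Among 13 annexins and S100 genes 3 were 1.5-fold higher, namely Anxa6, Anxa11 and Anxa4, and S100a6 was lower. Anxa2 had 495 RPM at 48 h and 455 at 72 h, above its 78.3 RPM in mESC, and Anxa3 had 38 and 28 reads against 3 in mESC.

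Ribosomal protein genes were nearly all slightly lower at 72 h. Of 79 members 76 were lower at 72 h than at 48 h, against 48.0% of all members, with a median of -0.24 and 0 past 1.5-fold. Together they made up 86814 RPM at 24 h, 99914 at 48 h and 86434 at 72 h, so that the 72 h sum was near that of 24 h. Rpl38, of the large subunit, had 526 RPM in mESC, 721 at 24 h, 903 at 48 h and 627 at 72 h, 1.44-fold lower (1.33 to 1.55). Rps21, of the small subunit, had 298, 382, 417 and 299 RPM in this order (1.40-fold lower, 1.2 to 1.56). The list median lay 0.18 above mESC at 24 h, 0.39 above it at 48 h and 0.15 above it at 72 h. Rpl4, Rpl8 and Rps12 were the members above 0, at 0.03 to 0.04.

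Nuclear genes of the respiratory chain showed the same direction with a smaller size. Of 76 members 58 were lower, with a median of -0.14, and 1 passed 1.5-fold, the ATP synthase subunit gene Atp5k (255 and 164 RPM, 1.56-fold lower, 1.34 to 1.81). Uqcr10, a subunit of complex III, was 1.44-fold lower (1.31 to 1.59), and Sdhd, of succinate dehydrogenase, was 1.37-fold higher (1.22 to 1.55). The bovine transcripts of the same 2 libraries gave medians of -0.31 over 76 ribosomal protein genes and -0.24 over 73 respiratory chain genes, where all 6584 bovine genes at 10 RPM had -0.02.

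Transcript length moved with these differences. GENCODE transcripts of GRCm38 gave a length for 99.3% of the members. In 5 classes of equal size the median difference from 48 to 72 h was -0.07 for the shortest, 0.12, 0.10 and 0.02 for the next ones, and -0.05 for the longest. In the shortest class, up to 1477 bases, lay 69 of the 79 ribosomal protein genes, and its other 1560 genes had a median of -0.05. The same classes stood at 0.13, -0.26, -0.26, -0.13 and 0.25 relative to mESC at 48 h and at 0.08, -0.13, -0.17, -0.11 and 0.15 at 72 h. In every length class the median difference from mESC was therefore smaller in size at 72 h than at 48 h. These medians are signed, so genes above and below mESC cancel in them. The part of length in the results above and below was not tested. GC content moved less, with class medians from 0.00 to 0.06.

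**Figure D4:**
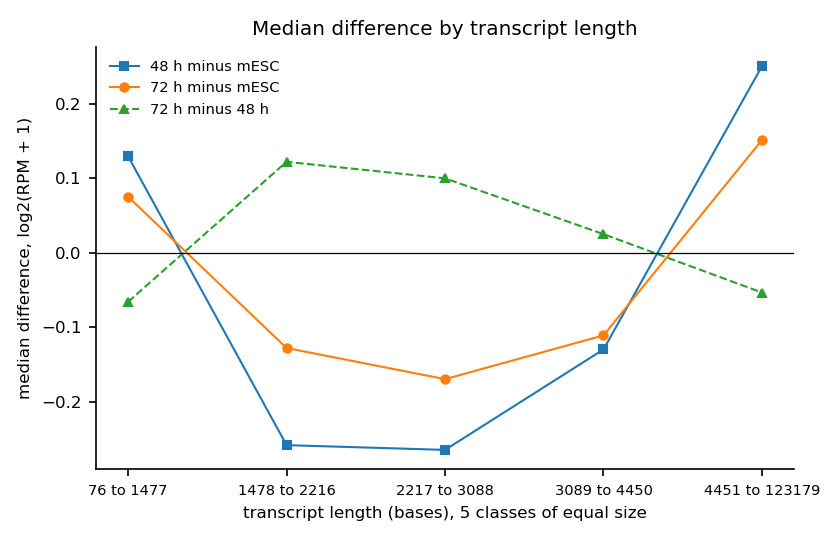
Median difference in log2(RPM + 1) (y axis) for members in 5 classes of transcript length (x axis, bases), for 48 h minus mESC, 72 h minus mESC and 72 h minus 48 h. The 48 h and 72 h curves have the same shape, and the 72 h curve is closer to 0 in each class.

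Most tRNA synthetase and glycolysis genes were slightly higher at 72 h. By any amount, 52.0% of all members were higher. Of 20 tRNA synthetases, which load amino acids onto tRNAs, 14 were higher and 6 lower, with a median of 0.24 and 0 past 1.5-fold in either direction. Gars had 627 RPM in mESC, 227 at 24 h, 329 at 48 h and 432 at 72 h, 1.31-fold higher (1.18 to 1.46), and Yars was 1.28-fold higher (1.08 to 1.53). Relative to mESC the list median stood at -1.05, -0.55 and -0.33 at 24, 48 and 72 h. Of 22 glycolysis genes 19 were higher, with a median of 0.13 and 1 past 1.5-fold. The pyruvate kinase gene Pkm had 3628 reads at 48 h and 5006 at 72 h, a 1.30-fold higher level, and the phosphofructokinase gene Pfkl 1.37-fold higher (1.18 to 1.58), while the glucose transporter gene Slc2a1 was 1.15-fold lower (1.04 to 1.27). The glycolysis median lay 0.59 above mESC at 48 h and 0.69 at 72 h. The median transcript lengths of the tRNA synthetase and glycolysis lists, 2870 and 2609 bases, fall in the class from 2217 to 3088 bases. Over all its genes that class had a median of 0.10 from 48 to 72 h, and the part of length was not tested.

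Fatty acid synthesis genes leaned downward, 10 of 13, with a median of -0.28 and 1 past 1.5-fold. Elovl1, which elongates saturated fatty acids, was 1.91-fold lower (1.31 to 2.81), the fatty acid synthase gene Fasn 1.5-fold lower (1.12 to 2.02) and the desaturase gene Scd2 1.29-fold lower (1.14 to 1.46). Sterol synthesis genes had a median of 0.06 over 23 members, with 0 past 1.5-fold.

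Few cell cycle genes differed by 1.5-fold, where 9.08% of all members were higher and 9.13% lower, shares that were not matched for level. Of 35 replication genes 1 was 1.5-fold higher and 0 lower (median 0.05), and of 35 mitosis genes 0 were higher and 1 lower (median 0.09). The replication helicase gene Mcm3 had 230 RPM in mESC and 161, 185 and 298 RPM in heterokaryons, 1.61-fold higher in this step (1.40 to 1.86). The mitotic activator gene Cdc20 was 1.49-fold higher (1.30 to 1.72) and the proliferation marker gene Mki67 1.58-fold lower (1.12 to 2.25). Of 14 histone genes 1 was 1.5-fold higher and 2 were lower, with 11 below 0 and a median of -0.11. The core histone gene Hist1h2bc had 44 reads at 48 h and 20 at 72 h, and the linker histone gene Hist1h1e had 32 and 19. The histone variant gene H2afx, the higher member, had 727 RPM in mESC, 288 at 24 h, 295 at 48 h and 468 at 72 h, 1.59-fold higher (1.42 to 1.77). Polycomb genes and histone modifiers had 1 of 28 members 1.5-fold higher and 2 lower, with 17 above 0 and a median of 0.05. The histone demethylase gene Kdm6b had 37 and 13 reads (3.02-fold lower, 1.57 to 6.19), and the histone methyltransferase gene Ezh1 had 15 and 30 (ratio 1.89, 0.983 to 3.77). Chromatin remodelers had 0 of 22 members 1.5-fold higher and 2 lower, with 14 above 0 and a median of 0.17, and the subunit gene Arid1a was 1.99-fold lower (1.27 to 3.16). Proteasome subunits had 0 of 31 members past 1.5-fold and a median of 0.01.

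**Figure D5:**
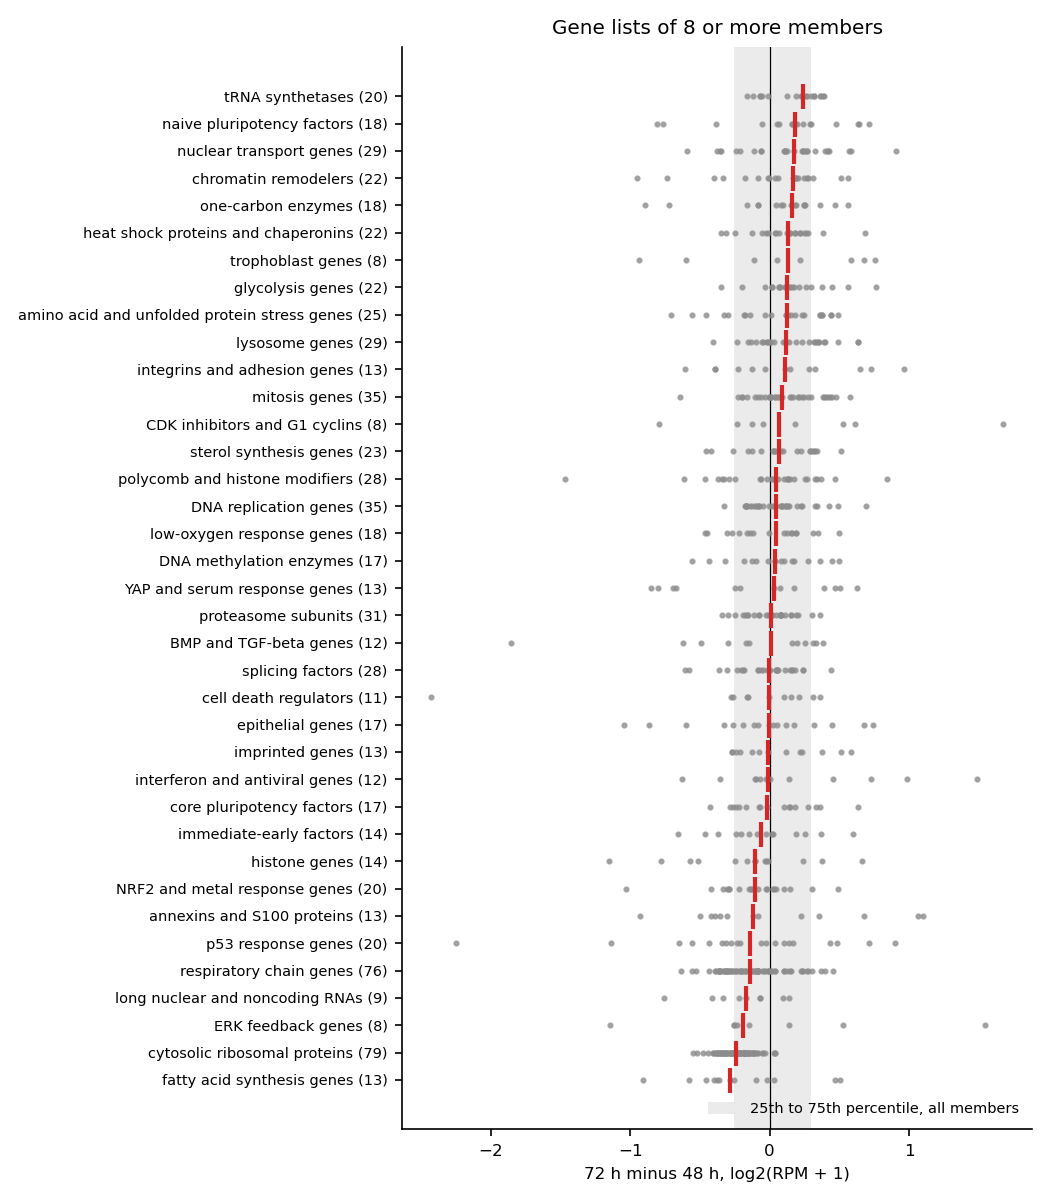
Difference from 48 to 72 h in log2(RPM + 1) (x axis) for the members of each gene list with 8 or more members (rows, number of members in brackets). Dots are members, red bars list medians, and the grey band the range from -0.25 to 0.29 between the 25th and 75th percentiles of all 8192 members; only the median of the fatty acid synthesis list, at -0.28, lies outside it.

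The last question was whether genes returned toward the stem cell level. Of the 181 genes 2-fold higher at 72 h, 129 lay closer to the mESC level than at 48 h and 52 farther from it, and of the 204 lower genes 111 lay closer and 93 farther. Closer does not mean back at that level. Of the 129 higher genes, 71 had crossed to the other side of the mESC value by 72 h, and of the 111 lower genes 68 had. Over all members 1084 of the 4969 that lay closer had crossed it. Of all 8192 members, 60.7% were closer to mESC at 72 h than at 48 h, so the 62.3% among the genes past 2-fold is near the background. That pooled share joins 71.3% of the higher genes, above the background, and 54.4% of the lower genes, below it. The 48 h library enters both the difference and the distance, and a value that is off at 48 h by error alone also appears to return. The 48 h value was the lowest of the 4 mouse libraries in 145 of the 181 higher genes (80.1%, against 24.2% of all members), a share that choosing genes by their low 48 h value raises. The 72 h value was the lowest in 146 of the 204 lower genes (71.6%, against 19.3%), which choosing genes by their low 72 h value raises likewise.

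Among the 14 genes past 2-fold at 50 RPM or more, 12 were closer to mESC at 72 h, against 65.4% of all 3629 genes at that level, and here too the 48 h value enters both the choice of genes and the distance. The 2 that moved away were Lefty1 and Bnip2, both lower than mESC at the end. Over all genes at 10 RPM or more in the libraries compared, 505 were at least 2-fold below mESC at 48 h (6.1%) and 326 at 72 h (3.99%), and 494 (5.97%) and 323 (3.95%) were at least 2-fold above it. These counts share the mESC library.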

How the data were processed

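The authors deposited a mouse and a bovine table of RefSeq transcripts holding read counts and, per the file headers, RPM values, and all 35814 deposited mouse RPM values per library equalled the count scaled to the column total within a relative 1e-06. The submitters' processing notes list bosTau8, GRCm38 and mm10. How reads were aligned, counted and assigned to a species is not given in the sources used here. Per the labels' protocols cDNA was made from polyadenylated RNA of 200 cells with 14 cycles.

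The totals row of the mouse table was left out. Of 60 mouse names turned into spreadsheet dates 57 were restored by RefSeq number, and 35814 transcripts were summed by name to 24543 genes. The value 1 never occurs, so a 0 may stand for 1 read. No source says whether strand was used, so values of overlapping genes, and of genes with near-identical copies, are uncertain. Starts are counted from 1. Differences are on log2(RPM + 1), calls are by size only, and ratios of RPM have exact conditional binomial intervals. PCR copies are not independent molecules, so intervals cover counting error only.

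Members, 43 gene lists and alternatives were chosen with earlier results of these data known. The rule named Pou5f1, Sox2 and Nanog, the 12 highest and 12 lowest genes at 50 RPM, 4 per list, the 6 that went farthest toward mESC and the 6 most away, and the 4 highest and 4 lowest among genes in steady direction or similar level from 24 to 48 h. Klf2, Klf4, Tfcp2l1, Nr0b1, Dppa5a, Nodal, Spry2, Etv5, Fos, Egr1, Krt18, Krt19, Anxa2, Anxa3, Rpl4, Rpl8, Rps12, Slc2a1 and Scd2 lie outside the rule and were picked once their values had been seen. Some genes the rule names are left out. Alternatives were TMM factors (edgeR 4.0.16), DESeq2 1.42.0 size factors, other pseudocounts, filters and limits, single transcripts, and subtraction of wrongly assigned reads, estimated as the bFF reads in the mouse table scaled by bovine reads. The calling step was tested on simulated data with counting error only, for changes of 4-fold or more in genes at 50 RPM or more. Changes of 2-fold, and changes in weaker genes, were not simulated. Python 3.11.15, pandas 2.3.3, numpy 2.4.6, scipy 1.17.1, matplotlib 3.10.9 and R 4.3.3 were used.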

Additional observations from a re-analysis of the deposited data

How the results depend on the processing

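The counts of 181 higher and 204 lower genes, and of 240 genes toward and 145 away from mESC, stayed within 1.5 times with TMM or DESeq2 scaling, a pseudocount of 0.5, wrongly assigned reads subtracted, or intervals required to lie clear of 1. With the scalings 176 were higher and 239 lower. A pseudocount of 5 gave 63 higher, 69 lower, 87 toward and 45 away. A filter of 50 RPM gave 7, 7, 12 and 2 in this order, no filter 1603, 1568, 1668 and 1503, and a limit of 4-fold 10, 18, 15 and 13. Single transcripts gave 297 higher. Fewer or more weakly covered genes enter by construction of the filters, the limit and the pseudocount; for single transcripts the cause was not tested. Of 925 values of named genes under other settings 924 stayed within their counting interval, and the exception was Mbnl1 with wrongly assigned reads subtracted (-2.11). Of 258 list counts past 1.5-fold 24 moved by over 1.5 times, 10 with TMM or DESeq2 and 14 with a pseudocount of 5. With either scaling the immediate-early list had 0 higher (1 as reported) and the fatty acid list 2 lower (1 as reported). With a pseudocount of 5 the naive list had 1 higher and 1 lower. Ribosomal protein genes had 76 of 79 members below 0 under each scaling and pseudocount run, and glycolysis genes 17 of 22 above 0 with TMM or DESeq2 scaling. No paired analysis was possible because each group holds 1 library, and for the same reason no replicate could be left out. Depth limits genes between 10 and 20 RPM most, where the median gene had 22 reads at 48 h.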
